A study of Homo sapiens with 4 samples.

Results

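The small nuclear RNAs (snRNAs), small nucleolar RNAs (snoRNAs) and small Cajal body RNAs (scaRNAs) were examined in a table of transcripts from a YTHDC1 RNA immunoprecipitation (RIP-seq). Entries were taken when the table typed the transcript as snRNA, snoRNA or scaRNA, or when its gene name began with SNORD, SNORA, SCARNA or RNU followed by a digit. The rule used no measured value. It took 110 of the 75165 entries, under 108 of the 20298 gene identifiers. Of these, 39 were typed snRNA, 60 snoRNA and 10 scaRNA, and 1 entry (SCARNA9, typed lncRNA) came in by its gene name only.

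The cells were MDA-MB-231, a triple negative breast cancer line, transduced with a lentivirus carrying 3x flag-YTHDC1 at a multiplicity of infection of 4 and selected with 2 µg/ml puromycin for 4 days. YTHDC1 is a nuclear protein that binds N6-methyladenosine in RNA. Cells were UV crosslinked with 3 exposures of 120000 µJ/cm2, and 500 µg of nuclear lysate protein was incubated with 5 µg of anti-Flag antibody. The 2 IP libraries were made from the bound RNA, and the 2 input libraries from lysate holding 50 µg of protein. The input is total RNA by its label but came from nuclear lysate by the protocol. Both groups carried the transgene, which a CMV promoter drove, so neither is an untreated culture, and an IgG control was not analysed here.

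The value used was the authors' mean normalized count of each transcript, which is 1 number for the 4 libraries together and is the level referred to below. It carries no error, and the depth behind it is unknown. It does not separate IP from input, so no level below says whether YTHDC1 bound an RNA, and no difference between levels could be set against a spread between replicates. Levels are listed as the authors gave them, so highest and lowest refer to the level and not to an amount per length. A transcript has an entry only if it passed the authors' read minimum, which the libraries of either group could meet alone. A missing entry therefore does not show that an RNA was absent. Where genes of different length are set in order or in ratio, this is done per 100 bases of RefSeq gene length, which need not be the length of the transcript that was counted.

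The table showed the line's mesenchymal markers at summed gene levels from 7624 for CAV1, a caveolar coat protein, to 80785 for VIM, the intermediate filament vimentin, with all 5 of 5 listed. Of the 6 genes fixed as low in this line, ESR1 and PGR, which encode the hormone receptors, had no entry, CDH1 (E-cadherin) summed to 10.0 and EPCAM, an epithelial adhesion protein, to 78.3. CLDN7, a tight junction protein, summed to 249 and ERBB2, a receptor kinase, to 4303. By summed level CDH1 lay above 13.0% of genes and EPCAM above 37.5%. CLDN7 lay above 51.2% and ERBB2 above 92.9%, so these 2 were not low in level. Over all 75165 single entries, which are not summed by gene, the median level was 44.2 and the lowest was 2.72.

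The RNAs described here work as guides or as parts of RNA and protein particles. The snRNAs U1, U2, U4, U5 and U6 form the spliceosome that removes most introns, and U11, U12, U4atac and U6atac serve the minor spliceosome. Box C/D snoRNAs guide ribose methylation and box H/ACA snoRNAs guide pseudouridylation, mostly of ribosomal RNA, while a few take part in cleaving its precursor. The scaRNAs guide the same changes on the spliceosomal snRNAs in Cajal bodies. Most human snoRNAs are cut from introns of other genes. The common snRNAs and U3 are transcribed from genes of their own and lack a poly(A) tail, and U1, U2 and U3 have several near-identical gene copies. Some snoRNAs and scaRNAs also hold a microRNA hairpin.

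Mature microRNA sequences lay inside 2 of the listed genes. They are shown because small RNA fragments of these genes carry a name and a function of their own, and because a read from them cannot be assigned to the longer RNA or the microRNA by sequence alone. All 3 come from RefSeq on GRCh38.p14, with the seed, bases 2 to 8, in capitals.
hsa-miR-6516-5p: uUUGCAGUaacaggugugagca
hsa-miR-6516-3p: aUCAUGUAugauacugcaaaca
hsa-miR-1291: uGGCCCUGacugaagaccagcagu

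The first pair lay on the plus strand within SCARNA16 (chr17:77089428-77089449 and chr17:77089469-77089490), whose level was 10.9 in each of its 2 entries. The third lay on the minus strand within SNORA2C (chr12:48654494-48654517), whose level was 6.73 in each of its 2 entries. The 3 seeds were all different. The 81-base hairpin of miR-6516 extended 4 bases beyond SCARNA16, and the 87-base hairpin of miR-1291 extended 12 bases beyond SNORA2C. Both levels were below the median of the table.

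The 110 entries together held 0.884% of the summed levels of the table, and most of this was a single RNA. RN7SK, the 7SK RNA that holds the elongation factor P-TEFb inactive (chr6:52995620-52995951 on GRCh38), had a level of 232045. It made up 78.6% of the sum over the 110 entries, and the other 109 entries held 0.189% of the table. The median level was 43.0 over the 110 entries and 44.2 in the whole table. With each level counted once, since many entries here share a value, the medians were 23.2 and 49.3. Levels under 10 were found for 31 of the 110 entries (28.2%), compared with 17.2% of all entries. The small RNAs thus reached from far above the median of the table, in 7SK, down to near its lowest value.

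By class, the median level was 281 for the snRNAs, 20.5 for the snoRNAs and 47.3 for the scaRNAs. The snRNA median is the value that 11 U2 entries share, and with each level counted once it fell to 35.5, below the scaRNA median of 47.3, while the snoRNA median was 20.3. Per 100 bases, the medians were 122 over 28 snRNA entries, 16.1 over 56 snoRNA entries and 25.1 over 9 scaRNA entries for which RefSeq gave a length. The snRNA median was 7.62 times the snoRNA median on that scale, but 1.64 times with each level counted once, when the medians per 100 bases were 26.4 for the snRNAs, 16.0 for the snoRNAs and 25.1 for the scaRNAs. The snoRNAs divided into 20 box C/D entries with a median level of 27.6, 26 box H/ACA entries with a median of 13.2, and 12 entries that were typed snoRNA but belonged to scaRNA genes, with a median of 72.2. For 2 entries, AL713899.1 and mgU12-22/U4-8, the names used here gave no box. The plot of levels by class shows these groups and the entries that share 1 value.

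**Figure D1:**
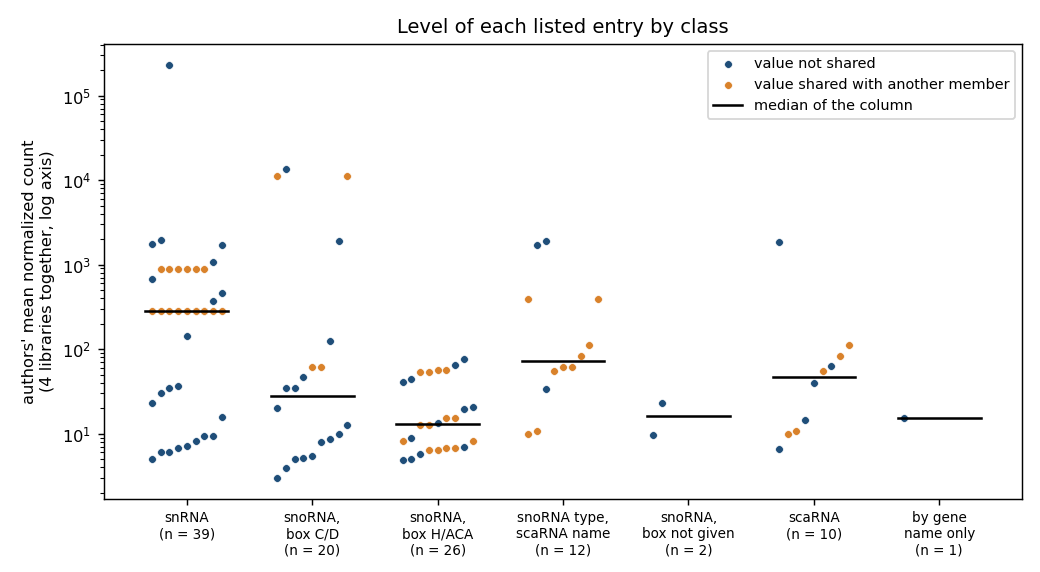
Authors' mean normalized count of each of the 110 entries (log axis, not divided by length) by class, with the median of each column as a bar; orange points share their value with another entry. 7SK stands alone at 232045, and rows of orange points mark 6 U1 entries at 893 and 11 U2 entries at 281.

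When entries of the same RNA were summed, 49 RNAs remained, and 26 of them had 1 entry. Such a sum takes the reads of an RNA to have been divided among its entries, which was not tested. Per 100 bases, 7SK summed to 69893, U3 to 17653, U1 to 7769, U2 to 1989 and SCARNA2 to 1303. SCARNA10 followed at 235, and U12, next in order, was at 95.4. The 20th in order was U6atac at 28.8. No error was available to order neighbours such as SCARNA22 at 87.7 and SCARNA13 at 82.4.

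**Figure D2:**
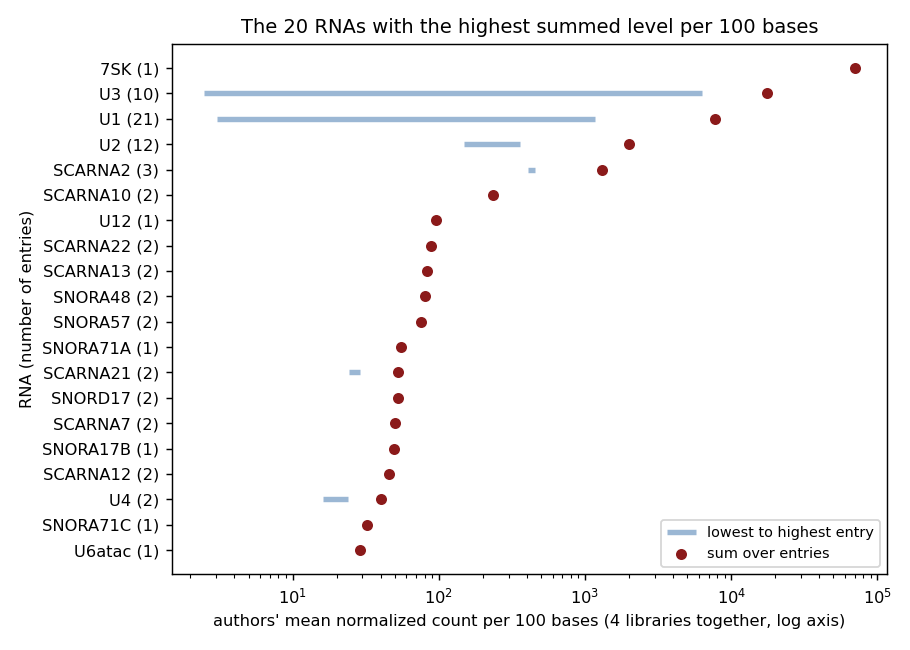
Summed authors' mean normalized count per 100 bases of RefSeq gene length (log axis) for the 20 RNAs with the highest sums, with the number of entries in brackets; bars run from the lowest to the highest single entry. The 5 highest run from SCARNA2 at 1303 to 7SK at 69893, and SCARNA10 follows at 235.

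U1, which recognises the 5′ splice site, had 21 entries that summed to 12741. The 4 U1 genes RNU1-1, RNU1-2, RNU1-3 and RNU1-4 were listed at 893 each. The same value, equal to within a relative difference of 1e-09, was given for the variant gene RNVU1-29 and for RNU1-28P, which RefSeq holds as a pseudogene on chromosome 14. These 6 equal entries made up 42.1% of the U1 sum.

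The 3 highest U1 entries were not among the 4 U1 genes. The value of 893 given for each U1 gene is shared by 6 entries, however, which summed to 5360, above any single U1 entry. The order here is thus one of single entries. RNVU1-7, a variant U1 gene at chr1:148038753-148038916, had the highest level at 1928. RNVU1-18 was at 1750, RNU1-27P, a RefSeq pseudogene at chr14:34546714-34546877, at 1697 and RNVU1-2A at 1080. All of these genes but RNVU1-2A, at 165 bases, are 164 bases long, the length of RNU1-1, so their levels are on 1 scale of length.

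The other listed variant genes spread over a wide range. RNVU1-31 was at 459 and RNVU1-28 at 373. RNVU1-19 was at 9.50, RNVU1-14 at 8.14, RNVU1-27 at 7.09 and RNVU1-15 at 6.005. The 10 listed variant genes held 51.1% of the U1 sum, the 4 U1 genes 28.04% and the 7 listed pseudogenes 20.8%. RefSeq holds 17 RNVU1 snRNA genes, of which 9 had an entry, and the listed RNVU1-29 was not matched to RefSeq. Of the pseudogenes, RNU1-67P was at 30.4 and RNU1-88P at 15.6. RNU1-11P was at 6.75, RNU1-89P at 5.996 and RNU1-134P at 5.01, and the last of these was the lowest of all snRNA entries. Copies this alike share reads, so the division of the U1 sum among them is uncertain.

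**Figure D3:**
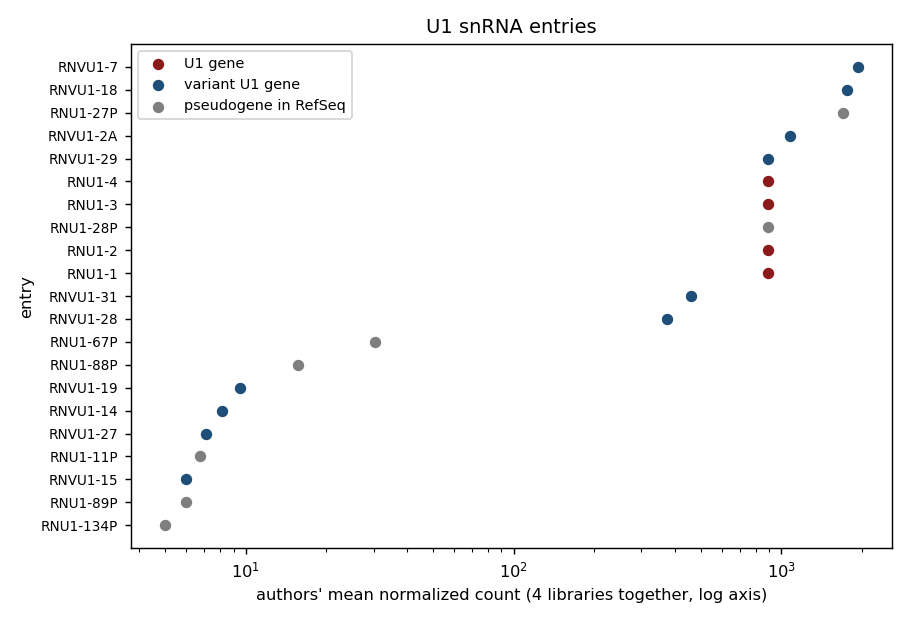
Authors' mean normalized count (log axis) of the 21 U1 entries, coloured as U1 gene, variant U1 gene or RefSeq pseudogene. The 4 U1 genes fall on 1 value of 893, which 6 entries share, and variant genes and pseudogenes lie both above it and as low as 5.01.

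U2, which pairs with the branch point, had 12 entries that summed to 3770 but held only 2 distinct levels. RNU2-1 (chr17:43233790-43233977) and 10 entries named after clones of AC024051, which the gene-name table gives as U2, were all at 281. The remaining entry, RNU2-2P, is the RefSeq gene RNU2-2 on chromosome 11 (chr11:62841619-62841809) and was typed snRNA here in spite of its name. Its level was 679. Per 100 bases, RNU2-2 was at 355 and each copy of RNU2-1 at 149, and the 11 equal entries together made up 82.0% of the U2 sum.

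U4, which delivers U6 to the spliceosome in a paired form, had 2 entries of equal length, RNU4-1 at 34.7 and RNU4-2 at 23.2. The genes lie close to each other on chromosome 12 (chr12:120293093-120293237 and chr12:120291759-120291903). None of the 39 snRNA entries was of U5, U6, U11 or U7, the last of which directs the 3′ end processing of histone mRNAs. RefSeq holds 5 U5 genes of 102 to 121 bases, 5 U6 genes of 107 bases, a U11 gene of 135 bases and a U7 gene of 63 bases. In the minor spliceosome, RNU12 was at 143, RNU6ATAC at 36.3 and RNU4ATAC at 9.39. Per 100 bases these were 95.4, 28.8 and 7.23. Their RefSeq lengths are 150, 126 and 130 bases, so U6atac and U4atac had entries though shorter than U11. U12 takes the place of U2 at minor introns, and U6atac and U4atac that of U6 and U4.

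U3, the box C/D snoRNA that is needed to cleave the precursor of the small ribosomal subunit RNA, had 10 entries that summed to 38307, which was 13.0% of the sum over the 110 entries. SNORD3A (chr17:19188016-19188232) held the highest. Its transcript SNORD3A-202 was at 13599, and SNORD3A-203 and the entry under the older name U3 were both at 11281. SNORD3B-2 was at 1893 and SNORD3B-1 at 124. SNORD3C was at 46.7 and 34.9 for its 2 transcripts and at 34.8 under the older name U3-3. The 2 clone-named entries given as U3 were lowest, AC023855.1 at 8.002 and AC011195.1 at 5.41. The 4 SNORD3 genes have the same RefSeq length of 217 bases, and reads of these near-identical copies can be shared among them.

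The other box C/D snoRNAs were few and at low levels. SNORD17, under its current name and the older name HBI-43, was at 62.3 in both entries. SNORD10, whose older name mgU6-77 refers to a methylated base of U6, was at 9.86 under the current name and at 20.3 under the older. SNORD74 was listed as U74 at 12.8 and SNORD36A as U36A at 8.55. SNORD13, which acts in processing and acetylation of ribosomal RNA, was at 5.19 and SNORD104 at 4.97. SNORD118 (U8), needed for maturation of the large subunit RNA, was at 3.93. SNORD12C at 2.99 had the lowest level of the 110 entries, close to the lowest value of the table. Per 100 bases it was at 3.78, above SNORD118 at 2.87. Without the 10 U3 entries, the 50 other snoRNA entries held 0.0170% of the table.

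The levels of the 26 box H/ACA entries ran from 4.87 for SNORA71D, listed as U71d, to 76.6 for SNORA71A, listed as U71a. When the entries of an RNA were summed, SNORA57 at 113 and SNORA48 at 109 came above SNORA71A. Per 100 bases these sums were 75.8, 80.5 and 55.5. This order takes reads to have been divided between the current and older names, which was not tested. SNORA17B was at 65.7. SNORA57 and its older name U99 were both at 56.5, and SNORA48 and ACA48 were both at 54.3. SNORA71C, as U71c, was at 44.7. SNORA73B, the U17 RNA that acts in cleavage of the ribosomal precursor and was listed here as U17b, was at 41.2, and SNORA73A at 20.7. SNORA74A was at 19.7, and near the low end were SNORA49 at 5.79 and SNORA71D, under its current name, at 5.00. Of the 26 entries, 11 were under 10. The class together held 0.00190% of the table.

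The scaRNAs were led by SCARNA2, a guide for methylation of U2 that is transcribed from its own gene (chr1:109100193-109100612). It was at 1853 under its current name, at 1921 as HBII-382 and at 1699 as mgU2-25/61, the last 2 typed snoRNA. SCARNA10, which carries both box motifs, was typed snoRNA and stood at 387 under the current name and as U85. Among the other entries typed scaRNA, SCARNA13 was at 113, SCARNA7 at 82.9, SCARNA6 at 63.2 and SCARNA22 at 54.8. SCARNA21 was at 39.8, SCARNA5 at 14.7, SCARNA16 at 10.9, AC090227.1 at 9.96 and SCARNA17 at 6.53. SCARNA12, typed snoRNA, was at 61.5, and SCARNA9, typed lncRNA, at 15.3. Older names of these RNAs, typed snoRNA, repeated the level of the current name for U93 (SCARNA13), U90 (SCARNA7), U89 (SCARNA12), ACA11 (SCARNA22) and ACA47 (SCARNA16). In all, 22 entries were of 12 SCARNA symbols, and 9 of these entries were typed scaRNA.

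Many of these entries repeated an RNA. Of the 110 entries, 28 carried an older name in place of an Ensembl identifier, and 27 of them could be matched to a current symbol through the synonyms of the table or of RefSeq. For 22 of the 27 the current symbol had an entry as well. The level was equal to a current entry in 15 of these 22 and differed in 7. The largest differences were mgU6-77 at 2.06 times SNORD10, U91 at 1.53 times SCARNA17, and ACA68 at 33.3 against SCARNA21 at 39.8. U91 was equal instead to the clone-named AC090227.1, at 9.96. The 5 older names with no current entry were U71a, U71c, U17b, U74 and U36A, so that these 5 RNAs were seen under an older name alone.

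**Figure D4:**
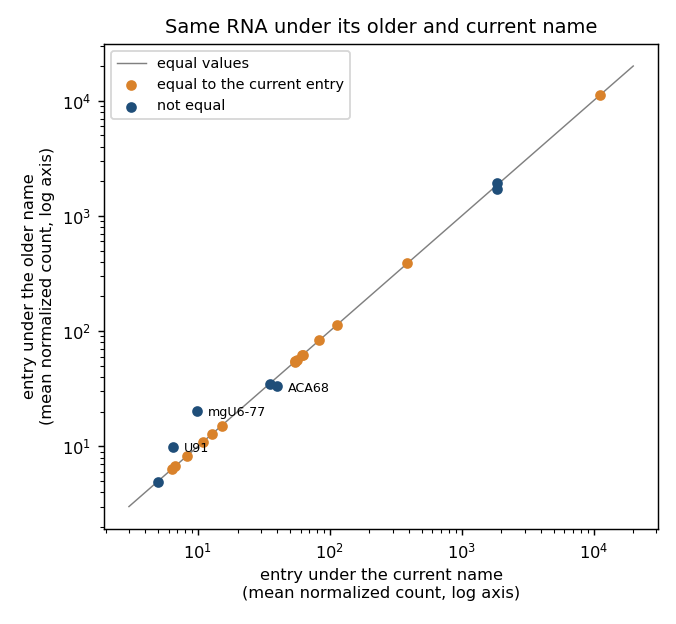
Authors' mean normalized count of 22 entries under an older name against the nearest entry under the current name (both axes log); the line marks equal values. 15 points are equal and lie on the line, and mgU6-77 stands highest above it at 2.06 times.

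Shared values were common. A level equal to that of another of the 110 entries was found for 49 (44.5%), in 18 groups, which left 79 distinct levels. Low counts can coincide, so the same was counted at levels of at least 10. There 41 of 79 entries (51.9%) shared a level with another of the group, compared with 1034 of 62225 entries of the whole table (1.66%) that shared one with any entry. Of the 18 groups, 17 were of entries of a single RNA, and U91 with AC090227.1 was the exception by name. Where an RNA is said here to sum to a level, its entries were added, and levels otherwise are those of single entries. The addition takes reads to have been divided among the entries, and this was not tested.

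Whether a snoRNA or scaRNA had an entry differed with its length. An entry means that the authors' read minimum was passed, so the shares below are not shares of genes expressed. Of 568 SNORD, SNORA and SCARNA genes in RefSeq, 42 had an entry (7.39%). The share was 1.32% of 302 genes under 100 bases, 2.38% of 42 genes of 100 to 124 bases, 10.4% of 173 genes of 125 to 149 bases, 5.26% of 19 genes of 150 to 199 bases and 56.2% of 32 genes of 200 bases or more. Within each of the 3 kinds the highest share was at 200 bases or more. For SNORD genes this was 5 of 10, compared with 2 of 12 at 125 to 149 bases. The 5 were SNORD17 and the near-identical U3 copies SNORD3A, SNORD3B-1, SNORD3B-2 and SNORD3C, which can share reads. The high SNORD share at that length thus rests mostly on 1 RNA. Of the SCARNA genes of at least 200 bases, 9 of 10 had an entry, compared with 2 of 16 at 125 to 149 bases.

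By kind, 12 of 357 SNORD genes had an entry (3.36%), 18 of 182 SNORA genes (9.89%) and 12 of 29 SCARNA genes (41.4%). Leaving out the tissue-restricted repeats SNORD113 to SNORD116, 12 of 239 SNORD genes did (5.02%). The 4 listed SNORD genes under 100 bases were SNORD74, SNORD36A, SNORD12C and SNORD104. Over the 42 genes, Spearman's rho was 0.60 between the summed level and the length and 0.30 between the level per 100 bases and the length. Both are descriptions across genes of the same libraries. The fragment size kept when the libraries were made is not given in the sources used here, and its part in these shares was not tested.

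**Figure D5:**
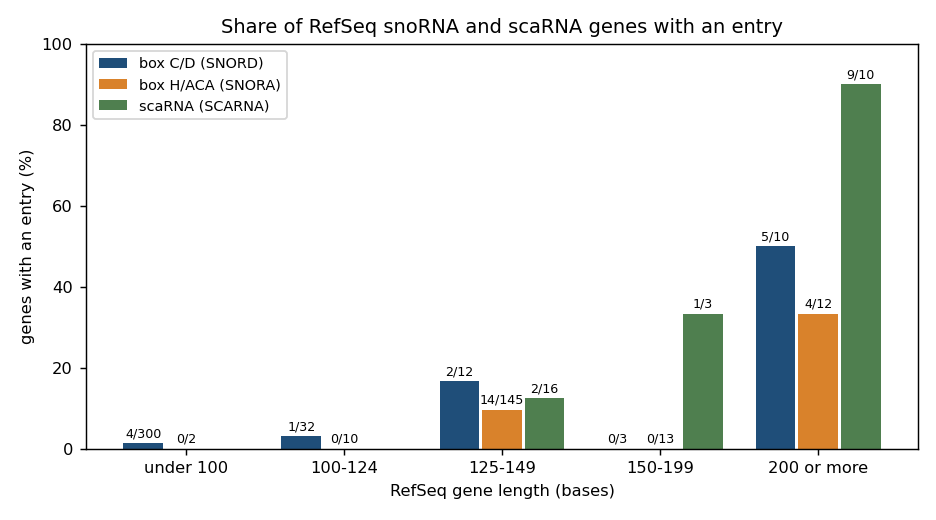
Percent of RefSeq SNORD, SNORA and SCARNA genes that had an entry, by RefSeq gene length in bases, with the number of genes above each bar; a bin without a number holds no gene of that kind. The share under 100 bases is 1.32% over all kinds, and it reaches 90.0% for SCARNA genes of 200 bases or more.

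For the same 42 genes, RefSeq positions were compared with the spans of other genes, without regard to strand. The span of another gene contained 36 of them, in 30 host genes, of which 20 were protein coding and 10 lncRNA. The 6 others were SNORD3A, SNORD3B-1, SNORD3B-2, SNORD3C, SCARNA2 and SNORD13. They included the genes with the highest snoRNA and scaRNA sums per 100 bases, SNORD3A and SCARNA2.

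Among the hosts were genes of ribosomal proteins and SNHG genes, which are named as snoRNA host genes. Summed levels are given side by side here, without a comparison of the long host with the short RNA. SNORA7A summed to 30.3 and RPL32, a ribosomal protein gene, to 13141. SNORD36A was at 8.55 in RPL7A, which summed to 35764. SCARNA22 summed to 110 in NSD2, a histone methyltransferase gene that summed to 20592. SCARNA10 summed to 775 in NCAPD2, a condensin gene that summed to 16164. SCARNA13 summed to 227 in SNHG10, which summed to 114. Reads of an unspliced host intron over a snoRNA cannot be told apart from reads of the mature snoRNA in these values.

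RNAs within 1 host differed in level per 100 bases. In SNHG17, SNORA71A summed to 55.5 per 100 bases, SNORA71C to 32.4, SNORA71B to 9.95 and SNORA71D to 7.16, and these homologous RNAs can share reads. In EIF4A1, which encodes a translation initiation helicase, SNORA48 summed to 80.5 and SNORD10 to 20.4, a ratio of 3.95. In ATG16L1, an autophagy gene, SCARNA6 was at 23.7 and SCARNA5 at 5.27, a ratio of 4.50. In SNHG3, SNORA73B was at 20.1 and SNORA73A at 10.0, a ratio of 2.01. These ratios carry no error.

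The proteins that build, modify and carry these particles were listed nearly throughout. Of the 41 names fixed for them, 40 had an entry, and the exception, TCAB1, is another name of WRAP53, which had one. Their summed gene levels ran from 68.7 for GEMIN8 to 9621 for RUVBL2. The 4 box C/D core proteins, fibrillarin (FBL) among them, had gene levels of 701 to 9425 and the 4 box H/ACA core proteins, with the pseudouridine synthase DKC1, of 137 to 2909. Gene levels of the 6 assembly factors ran from 298 to 9621, and those of the 10 SMN complex genes, which load the Sm ring onto snRNAs, from 68.7 to 6660. The 5 modification and capping genes ran from 213 for METTL4, which methylates U2, to 4181 for MEPCE, the capping enzyme of 7SK. METTL16, which methylates U6, was at 1289 and LARP7, a 7SK binding protein, at 1448. The 4 export and import genes ran from 487 to 3794 and the 5 SNAPC genes of snRNA transcription from 102 to 2682. Among the Cajal body genes, COIL, the coilin scaffold, was at 603 and WRAP53 at 1007. These are sums over all entries of a gene, of any transcript type, in IP and nuclear input together. They are not divided by length, so they are given as ranges and not set against the small RNAs.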

How the data were processed

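The RIP-seq data comprised 2 Flag-YTHDC1 IP and 2 input libraries of MDA-MB-231, grouped by their labels. According to the methods, the authors aligned reads with STAR (2.7.2b) to a transcriptome on GRCh38 (hg38), estimated transcript counts with RSEM (1.2.31), kept transcripts that passed a read minimum in a set share of samples, removed unwanted variation with RUVSeq and compared groups with DESeq2. The deposited signal of a transcript is the authors' mean normalized count, taken over the 4 libraries. RSEM divides reads that fit several transcripts by a statistical estimate. By the paper's methods, the RNA was depleted of ribosomal RNA and the libraries were made with a KAPA stranded kit. The strand setting of the counting, the handling of duplicates and the fragment size are not given in the sources used here. The table also holds the authors' own log2 fold changes, their standard errors, p-values and adjusted p-values, which were not used. The methods describe the change as one upon knockdown, whereas the labels describe IP and input.

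The table used gives no value per library. The planned test of IP against input, edgeR's quasi-likelihood test, was therefore not run, and no replicate error, confidence interval or depth per sample could be given. Levels were summarised with Python (3.11.15), pandas (2.3.3) and SciPy (1.17.1), and the steps that find shared levels and sum the entries of an RNA were tested on simulated data. Symbols, positions, lengths and microRNAs came from RefSeq (GRCh38.p14). Of the 110 entries, 94 (85.5%) matched a RefSeq gene. Levels were called equal under a relative difference of 1e-09.

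Named were all entries of a class with at most 12, otherwise its 10 highest and 3 lowest, and every listed copy of the spliceosomal RNAs. Proteins of the particles were given by count and range. The members and lists were chosen with earlier results of these data known. Other snoRNAs, the hosts, groups within a host and single proteins were named after their values were seen. No sequence of the snRNAs, snoRNAs or scaRNAs was used here.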

Additional observations from a re-analysis of the deposited data

How the results depend on the processing

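No paired analysis was possible because the values are 1 mean over all libraries, and for the same reason DESeq2 normalization, no filter, the replicate block and leaving out each library were not run. Of 45 alternatives, 27 moved a value by less than 1.5 times and 18 by more, through the entries left out or the division by length. A minimum level of 10 raised the median of all entries to 82.9 and that of the snoRNAs to 54.8, with 39 snoRNA entries left. At a minimum of 100, 38 entries were left, 10 of them snoRNAs and 2 scaRNAs. Leaving out the highest entry of each class lowered the share of the table to 0.143% for all entries, 0.0502% for the snRNAs and 0.00119% for the scaRNAs. Per 100 bases, the snRNA median was 7.62 times the snoRNA median, against 13.7 times without length. Chosen after seeing the data, leaving out older names left 32 snoRNA entries with 0.0835% of the table and a median of 13.2, and counting each level once left 24 snRNA entries with a median of 35.5 and gave a median of 23.2 over all entries. The snRNA median was then 1.75 times the snoRNA median, or 1.64 times per 100 bases, and it lay below the scaRNA median when not divided by length. Without replicates, differences between entries with few reads are limited by an unknown depth.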

Other observations

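The entry mgU12-22/U4-8, whose older name refers to bases of U12 and U4 and which could not be matched to a current symbol, had a level of 23.0. The only other entry of the table at this value was a transcript of SNHG22, the lncRNA gene whose RefSeq span contains SCARNA17. The summed level of SNHG22 was 23.0, from 1 entry. Whether the 2 entries describe the same sequence was not tested.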
